A study of Mus musculus with 16 samples.

Results

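Calprotectin is the pair of calcium-binding proteins S100A8 and S100A9, encoded by S100a8 and S100a9, and it is joined here by Ltf (lactoferrin), Camp (the cathelicidin antimicrobial peptide) and Mmp25 (a membrane-anchored matrix metalloprotease). These 5 genes, read by 6 assays because S100a8 had 2 of them, were taken by name from a panel of 584 genes and 648 assays. They were put together as calprotectin and neutrophil granule genes with the difference between DNBS and healthy samples of this same table already known. Their values in that contrast, and in any contrast that shares 1 of its groups, are therefore given as descriptions with no p-value.

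The RNA came from mouse colonic mucosa and was read by real-time PCR with TaqMan assays of an OpenArray inflammation panel, with 16 samples in 4 groups of 4. The DNBS_CEC group was given DNBS (dinitrobenzene sulfonic acid) into the rectum, where this hapten causes colitis, together with an oral treatment that the labels give only as CEC. The DNBS_Nissle group received intrarectal DNBS and oral Nissle, a strain of Escherichia coli used as a probiotic, and the DNBS group received intrarectal DNBS and oral buffer (PBS). The healthy group received PBS by both routes. The labels give no strain, age, sex, dose or time for the mice used here, and no genetic change. The design text speaks of pooling RNA of the mice while each sample has a number of its own, so a sample may hold RNA of 1 mouse or of several, and p-values measure only the spread between these samples. Samples are named below by the number in their title.

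Neutrophils carry calprotectin in their cytosol in large amounts, and calprotectin in stool is used in people as a measure of gut inflammation. It withholds zinc and manganese from microbes and can signal through Toll-like receptor 4. Lactoferrin, which binds iron, and cathelicidin, which damages microbial membranes, are stored in the secondary granules of neutrophils, and MMP25 (also called leukolysin) is found on neutrophil granules and the cell surface. None of these genes is read only by neutrophils: monocytes and inflamed epithelium can express S100a8 and S100a9, and glandular epithelium can express Ltf.

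In GRCm38.p6, S100a8 lies at chr3:90669071-90670034 on the plus strand and S100a9 at chr3:90692630-90695721 on the minus strand, 22.6 kb apart with 0 protein-coding genes between them. Camp (chr9:109847377-109849456, minus strand) and Ltf (chr9:111019292-111042766, plus strand) share a chromosome but are 1169.8 kb and 29 protein-coding genes apart. Mmp25 lies at chr17:23628315-23645269 on the minus strand. The 150 bases before the RefSeq start are printed here for the 3 members detected in every sample. Each line reads 5′ to 3′ along the gene's own strand, from chr3:90668921-90669070 (plus) for S100a8, chr3:90695722-90695871 (minus) for S100a9 and chr9:111019142-111019291 (plus) for Ltf, and capitals mark a match to TATAAA (the TATA box), TTNNGNAA (a C/EBP-type motif) or GAGGAA (a PU.1-type motif) on either strand.
S100a8: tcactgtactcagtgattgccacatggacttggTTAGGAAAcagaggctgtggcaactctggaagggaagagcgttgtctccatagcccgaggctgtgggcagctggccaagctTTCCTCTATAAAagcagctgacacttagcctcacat
S100a9: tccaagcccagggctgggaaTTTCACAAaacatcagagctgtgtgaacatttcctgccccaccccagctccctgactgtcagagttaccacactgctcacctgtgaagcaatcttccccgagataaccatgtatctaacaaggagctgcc
Ltf: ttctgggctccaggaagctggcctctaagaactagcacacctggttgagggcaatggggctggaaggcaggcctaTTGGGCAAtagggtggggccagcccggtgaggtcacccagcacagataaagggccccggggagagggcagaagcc
In S100a8 the PU.1-type match, on the opposite strand, ends where the TATA box begins at position -30, and no match in capitals overlaps another. TATAAA was found in the 250 bases before the start in 1 of the 5 members and in 12.4% of 32851 RefSeq promoters. In S100a9 a TATAAA begins at position 1 after the annotated start instead. TTNNGNAA was found in 3 of 5 members (S100a8, S100a9 and Ltf), against 36.8% of all promoters, and GAGGAA in 3 of 5 (S100a8, Ltf and Mmp25), against 23.3%. An NF-kB-type motif (3 G, any 5 bases, 2 C) was found in 2 of 5 members (Ltf and Mmp25) and in 45.8% of promoters, and its matches in Ltf overlap each other. The AP-1-type motif TGANTCA (6.75% of promoters) and the STAT-type motif TTCNNNGAA (7.02%) were found in 0 of 5. These are matches of letters in RefSeq sequence, and binding was not measured.

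A level is given below as −ΔCt, which subtracts the cycle threshold (Ct) of a gene from the mean Ct of 13 reference genes, a log2 scale on which 1 unit more is about 2 times more template. Wells with a Ct above 28 were called not detected. Per sample, 528 to 564 assays were detected and the reference genes averaged a Ct of 18.7 to 20.1. How many molecules stand behind a Ct is not known. The reference genes Ywhaz and Rplp2 varied most, and leaving them out moves the reference by amounts that differ between samples by at most 0.72 cycles, while S100a8 ranged over 11.7 units. In 194 wells (1.87% of the table) the Ct was exactly the average of the group's other 3 samples within 2e-06 cycles, as if a gap had been filled. DNBS_Nissle sample 1 has 61 and healthy sample 3 has 57 of these filled-in values. Among the members they are Ltf in DNBS_Nissle sample 1 and Mmp25 in healthy sample 6. Levels are compared between samples for 1 gene at a time, since assays of different genes differ in efficiency.

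S100a8, a subunit of calprotectin, was high in all DNBS_Nissle samples, high or intermediate in DNBS samples, divided in DNBS_CEC samples and low in all healthy samples. Its −ΔCt was 2.01, 2.33, −3.42 and −4.84 in DNBS_CEC samples 1, 2, 6 and 8. It was 2.42, 2.23, 2.62 and 1.23 in DNBS_Nissle samples 1, 4, 5 and 7, and −0.67, 4.77, −1.63 and 0.74 in DNBS samples 2 to 5. In healthy samples 3 to 6 it was −6.95, −5.06, −6.66 and −4.07. The highest and lowest of the 16 samples, DNBS sample 3 and healthy sample 3, were 3366-fold apart. No DNBS or DNBS_Nissle sample was as low as a healthy one, whereas DNBS_CEC sample 8 lay below healthy sample 6.

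S100a9, the other subunit, followed the same order of groups. Its −ΔCt was 1.61, 0.47, −3.03 and −5.36 in DNBS_CEC samples and 2.24, 0.61, 2.52 and 0.96 in DNBS_Nissle samples, in the same sample order. In DNBS samples it was −0.89, 4.47, −2.44 and 0.20, and in healthy samples −6.30, −4.92, −7.28 and −5.09. As for S100a8, the healthy range was reached by DNBS_CEC sample 8 alone among the 12 samples given DNBS, and DNBS_CEC sample 6 lay between it and the rest. Group means of S100a9 were −1.58 ± 3.20 in DNBS_CEC, 1.58 ± 0.94 in DNBS_Nissle, 0.34 ± 2.96 in DNBS and −5.90 ± 1.11 in healthy samples (SD, n = 4 each). For S100a8 they were −0.98 ± 3.69, 2.12 ± 0.62, 0.80 ± 2.82 and −5.69 ± 1.36 in the same group order. From high to low the order for both genes was DNBS_Nissle, DNBS, DNBS_CEC, healthy, and each group's range overlapped that of the next.

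Ltf, the iron-binding granule protein, was highest in DNBS samples. Its −ΔCt was −3.31, −1.45, −5.98 and −6.40 in DNBS_CEC samples, −3.58, −3.09, −4.05 and −3.18 in DNBS_Nissle samples and −1.004, −1.55, −5.04 and −2.85 in DNBS samples. Healthy samples had −6.81, −7.32, −6.02 and −7.57. The ranges of the 3 groups given DNBS overlapped, and in DNBS_CEC samples 6 and 8 the level was close to that of healthy sample 5. Group means were −4.28 ± 2.33 in DNBS_CEC, −3.48 ± 0.44 in DNBS_Nissle, −2.61 ± 1.79 in DNBS and −6.93 ± 0.69 in healthy samples (SD, n = 4 each). The small spread in DNBS_Nissle includes the filled-in value of sample 1, and the values of DNBS samples 3 and 5 carry fewer decimals than most of the table.

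**Figure D1:**
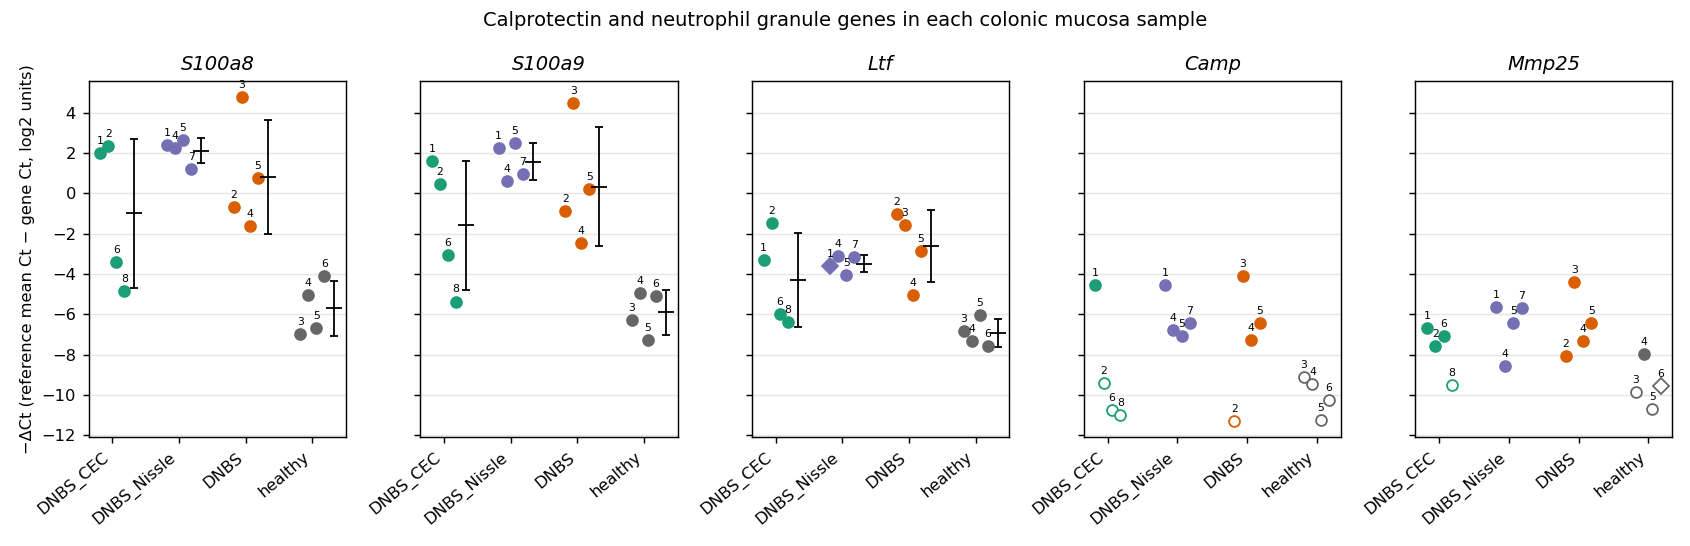
Level of each gene (−ΔCt, log2 units) in every sample, with the sample number above each point; open symbols are wells with a Ct above 28, diamonds are filled-in values, and for the 3 genes detected everywhere the bars give mean ± SD (n = 4). DNBS_CEC samples 1 and 2 sit with the DNBS_Nissle samples for S100a8, while DNBS_CEC samples 6 and 8 sit between −3.42 and −4.84.

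Camp, the cathelicidin gene, was near the limit of detection in many samples and is given as Ct, where lower means more RNA. Its Ct was 23.8, 28.6, 30.5 and 29.99 in DNBS_CEC samples 1, 2, 6 and 8, 23.5, 25.6, 26.8 and 25.1 in DNBS_Nissle samples 1, 4, 5 and 7, and 30.9, 23.1, 27.1 and 25.4 in DNBS samples 2 to 5. In healthy samples 3 to 6 it was 29.2, 28.8, 30.6 and 29.8. Camp was thus detected in 1 of 4 DNBS_CEC, 4 of 4 DNBS_Nissle, 3 of 4 DNBS and 0 of 4 healthy samples. With the limit at a Ct of 30 the counts became 3 of 4 in DNBS_CEC and 3 of 4 in healthy samples, so that detection of Camp in those groups depends on the limit.

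Mmp25, the membrane-anchored protease, had a Ct of 26.0, 26.8, 26.8 and 28.5 in DNBS_CEC samples, 24.6, 27.4, 26.2 and 24.4 in DNBS_Nissle samples and 27.7, 23.4, 27.2 and 25.4 in DNBS samples. Healthy samples had 29.98, 27.3, 30.01 and 29.1, the last a filled-in value. It was detected in 3 of 4 DNBS_CEC, 4 of 4 DNBS_Nissle, 4 of 4 DNBS and 1 of 4 healthy samples. On the −ΔCt scale healthy sample 4 lay above DNBS sample 2, DNBS_Nissle sample 4 and DNBS_CEC sample 8, so each group given DNBS overlapped the healthy group.

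DNBS samples against healthy samples is the contrast that the genes were picked on. Each SE of a difference, here and below, uses 1 spread per gene estimated over all 4 groups. S100a8 was 6.49 ± 1.496 units higher in DNBS than in healthy samples (SE from limma, n = 4 each), or 89.7-fold, S100a9 6.23 ± 1.41 units (75.3-fold) and Ltf 4.32 ± 0.95 units (19.95-fold). They ranked 1, 2 and 4 of 457 genes tested. All 16 pairs of a DNBS and a healthy sample had the higher level in DNBS for these 3 genes, as did 35 of 487 genes (7.19%). In bulk mucosa, more cells that express a gene and more RNA of it per cell cannot be told apart. Over the whole panel 5 of 457 genes (1.09%) passed at an adjusted p under 0.05 in limma. This count and the share of 7.19% include genes picked on this contrast, so nothing is read from either for the members.

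The number of genes called over the panel fell to 0 without DNBS sample 2 or 3 or without healthy sample 3, 4 or 6, to 1 without healthy sample 5 and to 2 without DNBS sample 5. The differences of S100a8, S100a9 and Ltf kept their direction in these alternatives. Without DNBS sample 3, S100a8 was 5.17 units higher in DNBS than in healthy samples and S100a9 4.86 units. Without DNBS sample 4 the differences were 7.30, 7.16 and 5.13 units for S100a8, S100a9 and Ltf. For the genes below the limit in healthy samples only a bound can be given. Camp was at least 2.22-fold and Mmp25 at least 3.24-fold higher in DNBS than in healthy samples, where healthy values beyond the limit were set to a Ct of 28. The mean of the DNBS samples used the Ct as measured, also in DNBS sample 2, whose Camp was not detected, which lowers the bound. The bound of Camp came to 0.10 on the log2 scale without DNBS sample 3, and that of Mmp25 to 0.98.

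DNBS_Nissle samples against healthy samples share the healthy group with the contrast used to pick the genes. S100a8 was 7.81 ± 1.4955 units higher in DNBS_Nissle than in healthy samples (224-fold), S100a9 7.48 ± 1.41 units (178-fold) and Ltf 3.45 ± 0.95 units (11.0-fold; SE, n = 4 each). S100a8 and S100a9 had the largest and second largest difference of 457 genes and Ltf was at rank 10. The groups did not overlap for S100a8, S100a9, Ltf and Camp, 4 of the 5 members, nor for 43 of 489 genes (8.79%) over the panel. Nothing is read from that share for the members, because the healthy samples served in picking them. Camp, detected in 0 of 4 healthy samples, was among the 489 genes only through its DNBS_Nissle samples. Camp was at least 4.69-fold and Mmp25 at least 3.18-fold higher. Over the whole panel 11 of 457 genes (2.41%) passed in limma, and nothing is read from that count for the members, since the healthy samples served in picking them. The count was 0 without healthy sample 3, 3 without DNBS_Nissle sample 1, and 5 without healthy sample 4 or 6.

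DNBS_CEC samples overlapped healthy samples for every member. S100a8 was 4.71 ± 1.49 units higher in DNBS_CEC than in healthy samples (26.1-fold), S100a9 4.32 ± 1.41 units (19.97-fold) and Ltf 2.65 ± 0.95 units (6.26-fold; SE, n = 4 each). The 3 differences ranked 1, 2 and 5 of 458 genes, but 0 genes passed (0%) in limma, where 25 had an unadjusted p under 0.05. The higher level was in DNBS_CEC in 15, 14 and 15 of 16 pairs for S100a8, S100a9 and Ltf. Over all genes 13 of 485 (2.68%) lay above healthy without overlap. Mmp25 was at least 1.46-fold higher in DNBS_CEC, whose mean includes the undetected sample 8 at its measured Ct, and for Camp no bound could be set. Without DNBS_CEC sample 8 the difference of S100a8 was 5.99 units and without DNBS_CEC sample 2 it was 3.60 units.

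**Figure D2:**
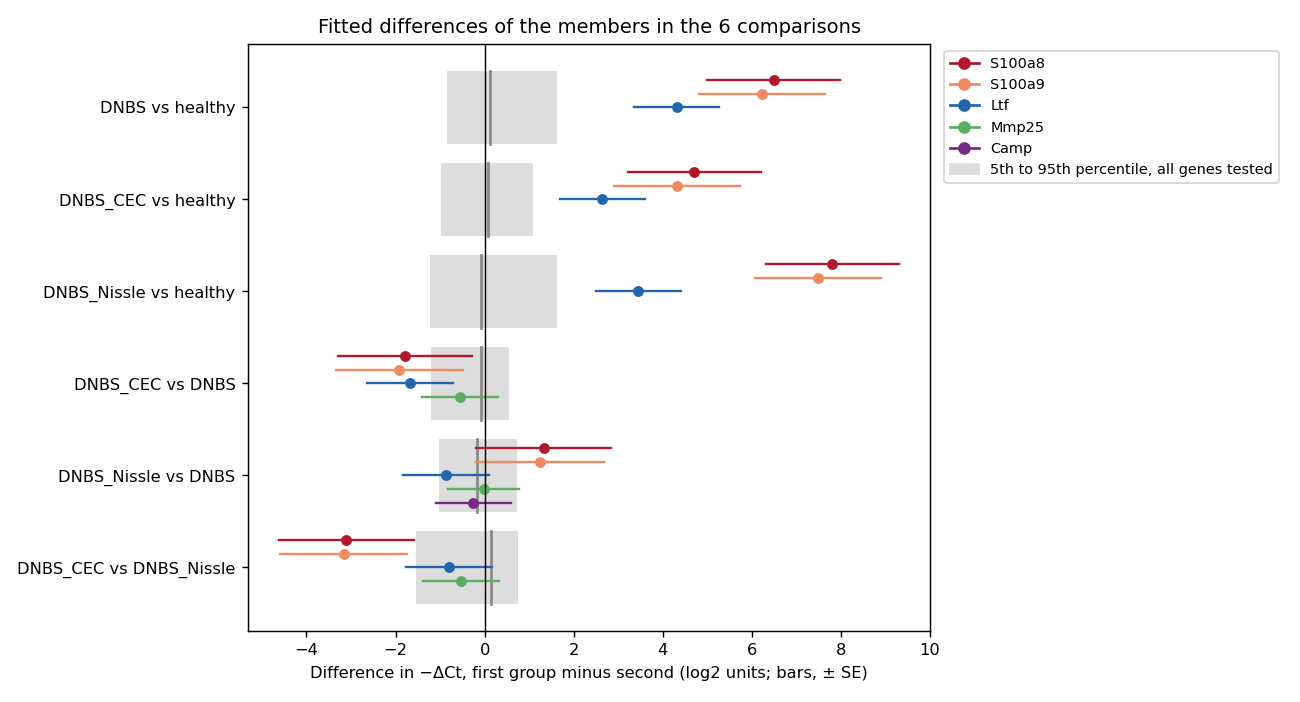
Fitted difference of −ΔCt for each gene that could be tested (points; bars are ± SE), first group minus second, in the 6 comparisons, over grey bars from the 5th to the 95th percentile of all genes tested and a grey line at their median. Against healthy samples S100a8, S100a9 and Ltf lie beyond the 95th percentile in all 3 comparisons, which share the 4 healthy samples.

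The oral treatments were also set against DNBS with oral buffer, which shares the DNBS samples with the picking contrast. In DNBS_CEC against DNBS samples S100a8 differed by −1.78 ± 1.51 units, S100a9 by −1.91 ± 1.43 and Ltf by −1.67 ± 0.96 (SE, n = 4 each), and the groups overlapped for all 3 genes. Without DNBS sample 3 the difference was −0.46 for S100a8 and −0.54 for S100a9. Mmp25 differed by −0.55 ± 0.85 with 1 undetected value dropped, and by 0.16 without DNBS sample 3. In DNBS_Nissle against DNBS samples S100a8 differed by 1.32 ± 1.51 units, S100a9 by 1.24 ± 1.43, Ltf by −0.87 ± 0.96 and Mmp25 by −0.02 ± 0.79. Without DNBS sample 3 these were 2.64, 2.62, −0.51 and 0.69, and without DNBS sample 4 they were 0.51, 0.32, −1.67 and −0.28. Without DNBS sample 2 Ltf differed by −0.33. Camp differed by −0.25 ± 0.84 with the undetected DNBS sample 2 dropped and by 1.08 with its measured Ct kept, so its direction depends on that sample. It was 0.66 without DNBS sample 3. In both comparisons 0 of 474 genes passed (0%), with 8 and 7 genes at an unadjusted p under 0.05.

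DNBS_CEC against DNBS_Nissle shares no sample with the contrast on which the genes were picked, and it was tested. The members were chosen with earlier results of these data known, so the test is not fully independent of that choice. The limma test takes its spread from all 16 samples, those of the picking contrast included, while the permutation test uses only these 8. All 5 members had a lower mean −ΔCt as measured in DNBS_CEC than in DNBS_Nissle samples, the 4 that could be tested did not pass, and Camp was below the limit in too many samples to test. S100a8 differed by −3.10 ± 1.51 units (8.60-fold lower in DNBS_CEC, 95% confidence interval −6.30 to 0.10) with a limma adjusted p of 0.961 and an exact two-sided permutation p of 0.2. S100a9 differed by −3.16 ± 1.43 units (8.93-fold lower, interval −6.18 to −0.14), with a limma p of 0.0416 before and 0.961 after adjustment over 471 genes and an exact permutation p of 0.114. That was the largest difference of the 471 genes. Its SE and interval assume the same spread in all 4 groups, while the SD of S100a9 was 3.20 in DNBS_CEC and 0.94 in DNBS_Nissle samples. An interval from the spreads of these groups alone was not computed. The smallest p that 4 against 4 samples allow in the permutation test is 0.0286.

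The DNBS_CEC samples behind these means were divided. Of 16 pairs of a DNBS_CEC and a DNBS_Nissle sample, the DNBS_CEC one was higher in 3 for S100a8, 2 for S100a9 and 6 for Ltf. DNBS_CEC samples 1 and 2 lay inside or near the DNBS_Nissle range of S100a8 and S100a9, and DNBS_CEC samples 6 and 8 lay below it. Without DNBS_CEC sample 8 the differences were −1.82 for S100a8 and −1.90 for S100a9, and without DNBS_CEC sample 1 they were −4.10 and −4.22. Ltf differed by −0.81 ± 0.96 units (interval −2.85 to 1.23, exact permutation p 0.429, limma adjusted p 0.961), and by −1.75 without DNBS_CEC sample 2 and −0.10 without DNBS_CEC sample 8. Mmp25 differed by −0.52 ± 0.85 (interval −2.38 to 1.33) with the undetected DNBS_CEC sample 8 dropped. With that sample kept at its measured Ct, Mmp25 differed by −1.13 (exact permutation p 0.257). Camp was at least 2.76-fold lower in DNBS_CEC, being detected in 1 of 4 DNBS_CEC and 4 of 4 DNBS_Nissle samples (two-sided Fisher's exact p 0.143, adjusted to 1 over 47 genes that could be compared by detection). That bound of −1.46 on the log2 scale became −2.50 without DNBS_CEC sample 1 and −0.91 without DNBS_Nissle sample 1. Over all genes 0 of 471 passed (0%) and 21 had an unadjusted p under 0.05. Groups not overlapping with DNBS_CEC lower were seen in 6 of 490 genes (1.22%) and in 0 of the 5 members.

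The spread of calprotectin within groups was among the largest on the panel. In DNBS_CEC samples S100a8 had the largest SD of 412 genes detected in all samples (3.69), S100a9 the second (3.20) and Ltf was at rank 4 (2.33), against a median SD of 0.68. In DNBS samples S100a9 was first (2.96), S100a8 second (2.82) and Ltf at rank 8 (1.79), against a median of 0.55. In DNBS_Nissle samples the same genes stood at rank 217 (0.62), 129 (0.94) and 295 (0.44) for S100a8, S100a9 and Ltf, against a median of 0.65. In healthy samples they ranked 7, 18 and 69. A difference in spread between groups was not tested.

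**Figure D3:**
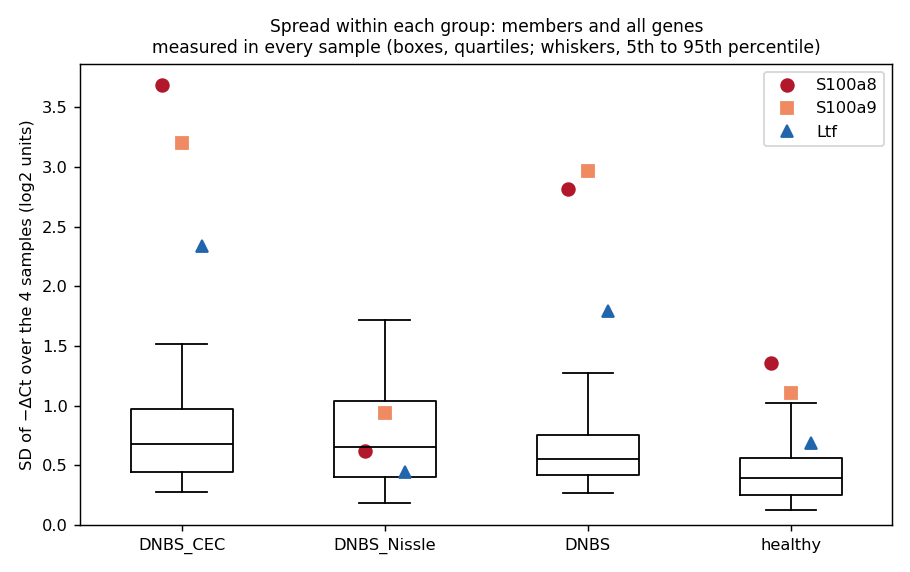
Standard deviation of −ΔCt over the 4 samples of each group for S100a8, S100a9 and Ltf (symbols) and for all 412 genes detected in every sample (box, quartiles with the median; whiskers, 5th to 95th percentile). The 3 genes lie above the whiskers in DNBS_CEC and DNBS and inside them in DNBS_Nissle.

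The 2 calprotectin genes went up and down together in nearly all samples. S100a8 and S100a9 correlated at r = 0.985 (rho 0.962) over the 16 samples and at r = 0.957 after the group means were removed. The 2 assays of S100a8 correlated at 0.997, with the first 0.80 ± 0.30 cycles later than the second (SD, n = 16), and gave differences between DNBS and healthy samples of 6.36 and 6.62 units. The Ct of S100a8 minus that of S100a9 averaged −0.46 ± 0.65 cycles (SD, n = 16) and reached from −1.86 to 0.65. These and the following correlations are descriptions without p-values, because the genes were picked for a shared pattern and all levels of a sample share 1 reference mean.

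Correlations that involved the granule genes were lower. After removal of group means S100a9 correlated at 0.742 with Mmp25, 0.71 with Camp and 0.597 with Ltf. S100a8 correlated at 0.591 with Mmp25, 0.648 with Camp and 0.661 with Ltf. Camp and Mmp25 correlated at 0.668, but Ltf correlated at 0.147 with Camp and 0.14 with Mmp25. Values of Camp and Mmp25 beyond the detection limit entered these correlations as measured. Whether these correlations differ from each other was not tested.

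Single samples show where lactoferrin and cathelicidin parted. DNBS sample 2 had the highest Ltf of all 16 samples and the lowest Camp, with S100a8 at rank 9. DNBS_CEC sample 2 had the second highest Ltf and S100a8 at rank 4, while its Camp was not detected. DNBS sample 3 was first in S100a8, S100a9, Camp and Mmp25 and at rank 3 in Ltf. DNBS_CEC sample 8 was at rank 13 or 14 in all 5 genes, among the healthy samples. A failed well cannot be told from a well with little RNA, so the 2 low Camp values carry that limit.

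**Figure D4:**
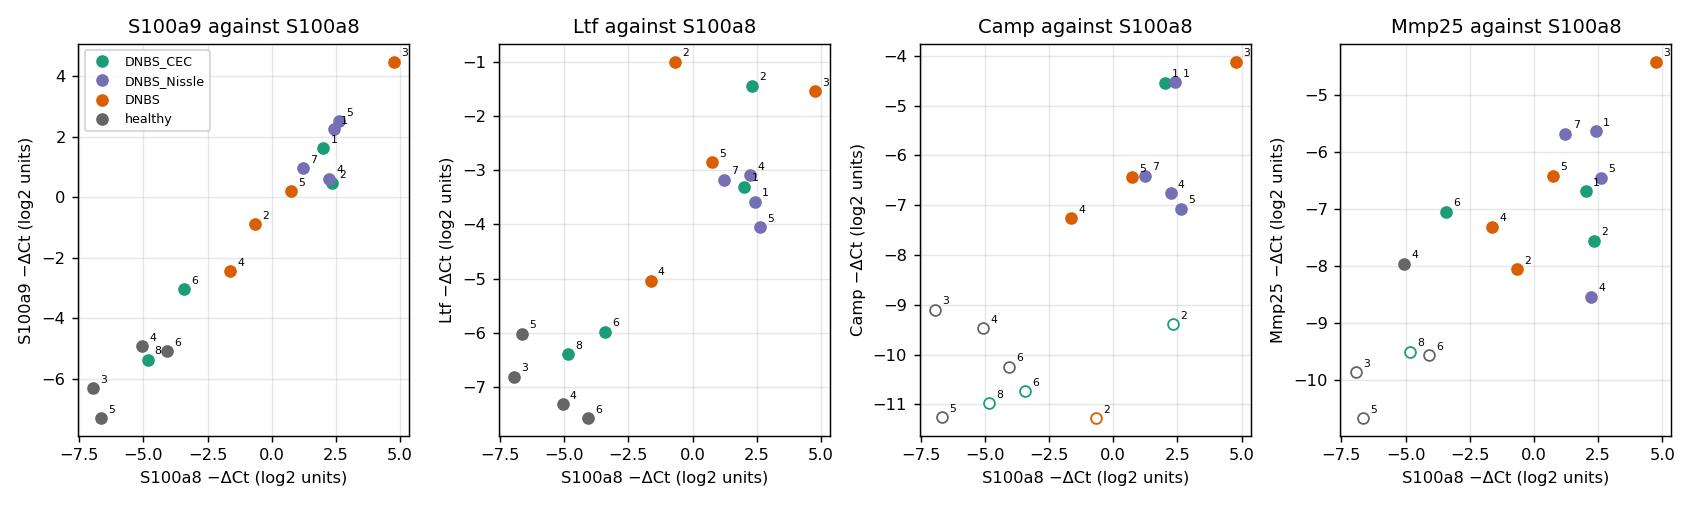
Level of S100a9, Ltf, Camp and Mmp25 (vertical axes) against S100a8 (horizontal axes) in the 16 samples, all as −ΔCt in log2 units, coloured by group and marked with the sample number; open symbols were not detected. S100a9 runs along a line with S100a8 (r = 0.985), while DNBS sample 2 stands at the top for Ltf and at the bottom for Camp.

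The genes whose levels followed calprotectin most closely were sought among 409 genes detected in all samples. Over the 16 samples S100a8 was followed by Cxcl5 (a neutrophil-attracting chemokine, r = 0.934), Il1b (interleukin 1 beta, 0.902), Cxcl1 (another such chemokine, 0.875), Selp (P-selectin, an adhesion molecule of endothelium and platelets, 0.864) and Tlr13 (a receptor for bacterial ribosomal RNA, 0.855). The same 5 genes came first for S100a9, with r from 0.859 to 0.929, against a median over all candidates of −0.05. After group means were removed, the closest genes to S100a8 were Cxcl5 (0.847), Tlr13 (0.845), Lrp8 (a lipoprotein receptor, 0.804), Ltb4r1 (a leukotriene B4 receptor, 0.776) and Il1b (0.773). For S100a9 they were Tlr13 (0.859), Ltb4r1 (0.842), Cxcl5 (0.84), Il33 (an alarmin of barrier tissues, 0.834) and Il1b (0.80). With the mean of all genes as reference Lrp8 moved to rank 22 for S100a8.

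Ltf had a different closest gene. Nos2, the inducible nitric oxide synthase, had an r of 0.898 with Ltf over the 16 samples and 0.725 after group means were removed, first by both measures. Cxcl5 (0.794), Tlr13 (0.735), Il3ra (the interleukin 3 receptor alpha chain, 0.72) and Inhbb (an inhibin and activin subunit, 0.72) came next over the 16 samples. Within groups they were Cxcl5 (0.652), Lrp8 (0.643), Cd80 (a co-stimulatory molecule, 0.604) and Tnfrsf1b (a tumour necrosis factor receptor, 0.599).

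Genes that attract or mobilise neutrophils were set beside the members. This list and those that follow were also chosen with earlier results of these data known. Their counts, medians and calls are therefore descriptions and no independent evidence about the members. Of 11 on the panel 8 were tested in DNBS against healthy samples, of which 7 were higher, 0 passed in limma and the median difference was 1.54, against 0.12 over all 457 genes. With the mean of all genes as reference these medians were 1.303 and −0.12, a shift of the whole table that leaves S100a8 at 6.25. Without DNBS sample 3 the median of the list was 0.87. The largest were Il8rb (now Cxcr2, a chemokine receptor of neutrophils, 2.82 ± 0.86, adjusted p 0.207), Cxcl5 (2.68 ± 0.71, 0.104) and Cxcl1 (2.31 ± 0.90, 0.324). In DNBS_Nissle against healthy samples 2 of 8 passed, Il8rb at 3.98 ± 0.86 and Cxcl5 at 3.79 ± 0.71, with limma adjusted p of 0.0175 and 0.012. In DNBS_CEC against DNBS_Nissle samples 9 of 10 were lower and 0 passed, with a median of −1.13 against 0.15 over all 471 genes. Cxcl2 differed by −3.15 ± 1.48, Cxcl3 by −2.96 ± 1.28 and Il8rb by −2.57 ± 0.80 units there.

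Cytokines known to induce S100a8 and S100a9 in epithelium or myeloid cells were mostly too low to test against healthy. Of 13 on the panel 3 were tested in DNBS against healthy samples, all higher and 0 passing: Il1b at 3.71 ± 1.02 (limma adjusted p 0.107), Tnf at 1.74 ± 0.77 (0.42) and Lif at 0.71 ± 0.61 (0.824). Il1b was 4.76 ± 1.02 units higher in DNBS_Nissle than in healthy samples and passed (limma adjusted p 0.0175). In DNBS_CEC against DNBS_Nissle samples all 8 tested were lower and 0 passed, with a median of −1.93, which was −1.19 without DNBS_Nissle sample 1 and −2.55 without DNBS_Nissle sample 7. There Il1a differed by −2.90 ± 1.49, Il1b by −2.89 ± 1.03 and Il1f9 (interleukin 36 gamma) by −2.05 ± 0.76 units.

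Receptors and signal partners of calprotectin and lactoferrin, such as those of the Toll-like receptor pathway, gave 0 calls. All 8 on the panel were tested in DNBS against healthy samples, 7 higher and 0 passing, with a median difference of 0.29. With the mean of all genes as reference 5 of the 8 were higher and the median was 0.05. The largest were Myd88, the adaptor of most Toll-like receptors (0.85 ± 0.37, limma adjusted p 0.402), Cd14, a co-receptor for lipopolysaccharide (0.60 ± 0.47), and Nfkb1 (0.46 ± 0.70). In DNBS_CEC against DNBS_Nissle samples 4 were lower and 4 higher, 0 passed and the median was 0.02. Without Ywhaz and Rplp2 in the reference 6 were lower and 2 higher (median −0.23), and with Gapdh alone 7 were lower and 1 higher (median −0.33). Cd180, a relative of Toll-like receptor 4, differed by 1.28 ± 0.46 units, Cd14 by −0.54 ± 0.47 and Tlr2 by 0.31 ± 0.30.

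Other products of neutrophils included 1 call against healthy. Of 11 such genes on the panel 8 were tested in DNBS against healthy samples, all 8 higher (7 under each other scaling), 1 passing and with a median of 0.97. Chi3l3 (also Chil3, a chitinase-like protein of macrophages and neutrophils) rose by 5.34 ± 1.13 units with a limma adjusted p of 0.045, Itgam (an integrin chain of myeloid cells) differed by 2.07 ± 0.78 and Alox5ap (a leukotriene synthesis protein) by 1.91 ± 0.66. In DNBS_CEC against DNBS_Nissle samples 6 of 8 were lower and 0 passed, with a median of −0.25 (0.03 without DNBS_Nissle sample 5) and Chi3l3 at −1.85 ± 1.23, Ltb4r1 at −0.90 ± 0.64 and Alox5ap at −0.61 ± 0.67. The 5 antimicrobial or iron-related genes of other cells were all higher in DNBS than in healthy samples, with a median of 2.02 (2.90 without DNBS sample 3) and 1 passing: Nos2 at 3.83 ± 0.72 (limma adjusted p 0.0284), Saa3 (a serum amyloid A protein) at 3.64 ± 1.31 and Hmox1 (heme oxygenase) at 2.02 ± 0.55. In DNBS_CEC against DNBS_Nissle samples 3 of these 5 were lower and 0 passed, their median was −0.48, or 0.41 when DNBS_CEC sample 8 was left out, with Nos2 at −0.82 ± 0.72, Reg3g (an antimicrobial lectin) at 0.68 ± 0.92 and Saa3 at −0.65 ± 1.32. Of proteases and their inhibitors only Serpina1a was tested, and it differed by 0.65 ± 1.16 in DNBS against healthy and by 1.08 ± 1.17 in DNBS_CEC against DNBS_Nissle samples.

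Markers of neutrophils other than the 5 genes were compared over the same samples. Il8ra, Itgam, Itgb2 and Fpr1, detected in all samples, had a mean −ΔCt of −3.85 ± 0.87 in DNBS_CEC, −3.63 ± 0.83 in DNBS_Nissle, −3.07 ± 0.79 in DNBS and −4.34 ± 0.62 in healthy samples (SD, n = 4 each), with ranges that overlapped between all groups. That mean correlated with S100a8 at 0.598 over the 16 samples and 0.481 after group means were removed. Ela2 (neutrophil elastase, a primary granule protease) was detected in 0 of 16 samples and Il8rb in 15, so both are left out of that mean. Il8rb was 2.82 units higher in DNBS, 3.98 in DNBS_Nissle and 1.42 in DNBS_CEC than in healthy samples. In DNBS against healthy samples Itgam differed by 2.07, Fpr1 by 1.47, Itgb2 by 1.20 and Il8ra by 0.34 units. Il8ra was lower than in healthy samples in DNBS_CEC (−0.21) and DNBS_Nissle (−0.64). The 7 other tested markers of the list, S100a8, S100a9 and Ltf included, were higher there. Of 6 monocyte and macrophage markers detected in all samples the mean was −2.69 ± 0.41 in DNBS_CEC, −2.58 ± 0.54 in DNBS_Nissle, −2.20 ± 0.39 in DNBS and −2.44 ± 0.18 in healthy samples, and it correlated with S100a8 at −0.02. The list's other marker, Chi3l3, was detected in 15 samples and is left out of that mean. It was 5.34 ± 1.13 units higher in DNBS than in healthy samples, 5.33 higher in DNBS_Nissle and 3.47 ± 1.22 higher in DNBS_CEC. With it, 5 of the 7 markers were higher and 2 lower in DNBS than in healthy samples. In DNBS_Nissle 2 were higher and 5 lower, and in DNBS_CEC 3 were higher and 4 lower. The panel held 3 genes of the epithelial list (Krt8, Il18 and Ltbr), all detected in every sample. All 3 were higher in DNBS_CEC and in DNBS than in healthy samples, while in DNBS_Nissle 2 were higher and 1 lower. Their mean was 1.54 ± 0.35 in DNBS_CEC, 1.23 ± 0.45 in DNBS_Nissle, 1.42 ± 0.64 in DNBS and 1.15 ± 0.20 in healthy samples. Adipocyte markers (4 genes) averaged −2.38 ± 1.22, −3.25 ± 0.66, −1.77 ± 0.61 and −1.31 ± 1.37 in the same group order and correlated with S100a8 at −0.57, and 3 T cell markers averaged −6.00 ± 0.91, −6.80 ± 0.66, −6.54 ± 1.08 and −5.93 ± 0.22. Among single markers detected throughout, Selp (endothelial list) correlated with S100a8 at 0.864, Kit (mast cell list) at −0.71 and Prg2 (eosinophil list) at −0.17 over the 16 samples. Each was the only marker of its list detected in every sample. Fcer1a, the other mast cell marker on the panel, was detected in 1 of 16 samples. Whether these single genes follow the number of those cells was not tested. The part of cell mixture in the values of the members was not tested, and no B cell, NK cell or fibroblast marker of the lists was on the panel.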

How the data were processed

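The authors deposited a table of raw cycle thresholds (Ct; unit recorded as other) for 648 assays in 16 samples, with no normalization. Per the labels' protocols, RNA was extracted with the mirVana kit and run on TaqMan OpenArray cards. Thresholding software was not given in the sources used here. Groups came from the labels' treatments.

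The 2 S100a8 assays were averaged. A level is the mean Ct of 13 reference genes (19 assays) minus the Ct of the gene, and some reference genes are not reported here by name. Ct above 28 was not detected and dropped from fits. A gene was tested when at most 1 sample of each group lacked it. Differences were fitted with limma 3.58.1 in R 4.3.3, 1 model over 16 samples, with Benjamini-Hochberg adjustment over the genes of each comparison at 0.05. The fit was also run on simulated data with the same spread in every group and no undetected wells. The members differ from that setting, so no conclusion on them is drawn from the simulation. The model holds 1 spread per gene for all 4 groups, although the SDs of the members differed between groups. A bound sets undetected values of the lower group at the limit and keeps the higher group's values as measured.

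The members and gene lists were chosen with earlier results of these data known. Genes named besides members are the 5 closest by correlation and, per list, the 3 with the largest difference in DNBS against healthy and in DNBS_CEC against DNBS_Nissle, with genes that passed in a list. Motifs were searched in RefSeq promoters (GRCm38.p6), which held all 5 members. Sample numbers shared between groups were not taken to pair the samples. Alternatives covered the reference, the limit, edited values, left-out samples, a replicate block, weights and a floor.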

Additional observations from a re-analysis of the deposited data

How the results depend on the processing

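Of 1308 recomputed values 1267 moved by less than their spread or threshold and 41 by more. For members the yardstick was the SD within groups, or, for fitted differences in DNBS_CEC against DNBS_Nissle, an unchanged sign and call. It is wide for S100a8, whose −1.78 in DNBS_CEC against DNBS became −0.33 with a replicate block and counted as unmoved. The sign turns given next also counted as unmoved, so the share says little on stability. Signs turned in 16 of 485 fitted differences of members, all of them Camp or Mmp25 in DNBS_CEC or DNBS_Nissle against DNBS samples, in 2 of 119 bounds (Camp in DNBS_CEC against DNBS) and in 29 of 540 medians of gene lists. The number of genes called in DNBS against healthy samples (5) was 1 without Ywhaz and Rplp2 in the reference, with all control genes as reference, with a Ct limit of 30, with any Ct under 40, without filled-in values and with undetected values set to the limit. It was 0 with the mean of all genes as reference, with quantile normalization and without healthy sample 3 and DNBS_Nissle sample 1 together, and 13 with array weights. Leaving out single samples gave 0 to 6. In DNBS_CEC against healthy samples (0) it gave 0 to 1, the 1 without DNBS_CEC sample 8. In DNBS_Nissle against healthy samples (11) the count was 17 with quantile normalization, 20 with samples of the 2 groups only, 28 with array weights and 0 without healthy sample 3 and DNBS_Nissle sample 1 together, and single samples left out gave 0 to 14. Bounds rose with the Ct limit at 30 and with any Ct: Mmp25 in DNBS_CEC against healthy (0.54) to 1.81 and 1.81, Mmp25 in DNBS_Nissle against healthy (1.67) to 2.94 and 2.94, and Camp there (2.23) to 3.68 and 3.83, since fewer values are then set to the limit. For the other changes the cause was not tested.

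Same-numbered samples of different groups correlated above 0.1 in 4 of 10 pairs (−0.47 to 0.31), so the numbers were not taken to pair samples. With the sample number as a replicate block, 2 genes were called in DNBS against healthy and 0 in DNBS_Nissle against healthy samples, and DNBS_CEC differed from DNBS_Nissle by −2.19 for S100a8 and −2.14 for S100a9. The limma adjusted p of S100a9 in that comparison stayed between 0.449 and 0.9999 over the 22 alternatives that give one. Levels near a Ct of 28 limit Camp and Mmp25.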
